A study of Homo sapiens with 12 samples.

Results

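DNA replication licensing and fork genes are described here in a human kidney cancer cell line, as 49 genes named by symbol. They were matched to the Ensembl identifiers of the deposited count table, which holds 60663 gene identifiers. All 49 were found, and all 49 were among the 20714 genes that had enough reads to be tested. The cells were RCC4, a clear cell renal cell carcinoma line that lacks a working VHL gene (labelled VHL-), and the same line with VHL put back (labelled VHL+). Each line was grown with the solvent DMSO or with 5 µM JQ1, a small molecule that blocks the acetyl-lysine pockets of BET bromodomain proteins and that the submitters used as a MYC inhibitor. Ribosome-depleted total RNA was sequenced from 12 libraries, 3 in each of the 4 groups. Medium for both lines contained geneticin, and the growth notes also describe lentiviral hairpins against MYC and a scrambled control, which no library's own label names. The labels do not give the time of exposure, how VHL was put back, whether either line is a single clone, or whether replicates came from separate cultures. The p-values therefore measure the spread between these libraries, which may be technical.

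Replication is prepared when the origin recognition complex, CDC6 and CDT1 load the MCM2-7 helicase onto DNA, a step called licensing that geminin (GMNN) blocks by holding CDT1. The helicase is switched on in S phase by the DBF4-CDC7 kinase, MCM10, CDC45 and the GINS complex. The fork then runs on polymerases alpha, delta and epsilon, the PCNA clamp with its RFC loader, and the single-strand binder RPA. Many of these genes are transcribed as cells commit to S phase by E2F factors, which bind sites upstream of their start.

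Promoters of the members were therefore searched for E2F-type words. RefSeq promoter entries of assembly GRCh38.p14, running from 250 bases before to 50 bases after a start, were matched by symbol for 43 members in 54 entries. MCM4, MCM5, GINS4, POLD3, RPA2 and RPA3 had no entry. The words TTTGGCGC, TTTGCCGC, TTTCGCGC and TTTCCCGC were searched on both strands, as was the E-box CACGTG that MYC with its partner MAX can bind. At least 1 E2F word was present in 21 of the 54 entries (38.9%), from 21 different members, against 1164 of all 35116 entries (3.31%). The E-box was present in 6 of 54 (11.1%), against 2548 of all entries (7.26%). Stretches from POLA1, GMNN and MCM6 are shown because these members were higher in VHL-negative cells under both DMSO and JQ1, as described below, and carry a match before the start that lies in no exon of GENCODE 29. Each is written 5′ to 3′ on the strand of the gene, and capitals mark the matched words. In MCM6 a match on either strand overlaps to give 1 longer run. The intervals are chrX:24693751-24693818 (plus strand) for POLA1, chr6:24775303-24775370 (plus strand) for GMNN and chr2:135876558-135876625 (minus strand) for MCM6. The POLA1 and MCM6 stretches lie upstream of the GENCODE 29 gene, and that of GMNN lies in an intron of its longer GENCODE model.
POLA1: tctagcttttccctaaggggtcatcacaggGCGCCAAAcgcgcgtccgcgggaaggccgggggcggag
GMNN: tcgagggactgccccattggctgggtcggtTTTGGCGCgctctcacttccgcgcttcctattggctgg
MCM6: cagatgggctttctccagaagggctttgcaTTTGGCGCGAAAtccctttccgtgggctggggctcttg
Entries of members that fell with JQ1 in VHL-positive cells held an E2F word in 9 of 20 cases (45%), and entries of the other members in 12 of 34 (35.3%). For the E-box these were 1 of 20 (5%) and 5 of 34 (14.7%). A match describes these letters only.

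Libraries held 15452949 to 32502310 gene counts. Levels are given as CPM, read counts scaled to a common library size by TMM. Mitochondrial genes took 9.90% to 25.3% of counts, and the 49 members together 0.217% to 0.466%. VHL was present in every library, at 67.3, 64.6 and 78.9 CPM in VHL-positive DMSO libraries against 24.9, 28.2 and 26.2 CPM in VHL-negative ones, and was lower in the latter (log2 difference -1.41, adjusted p = 2.2e-07). With JQ1 it was 219.7, 196 and 221 CPM in VHL-positive cells and 35.2, 32.4 and 30.5 CPM in VHL-negative cells. Renal and clear cell carcinoma markers summed to 2287 to 2916 CPM, with each of the 9 detected in at least 1 library of every group. One of them, the hypoxia-regulated CA9, was at 0 to 26 counts (0 to 0.946 CPM) in VHL-positive libraries and at 24.1 to 97.8 CPM in VHL-negative ones. Other single markers also differed between lines under this sum. With DMSO, CDH16 had 2475 to 5730 counts in VHL-positive and 282 to 382 in VHL-negative libraries. CDH6 had 10168 to 17932 and 2255 to 2728. VIM went the other way, at 16764 to 26312 and 39284 to 46971 counts. The endothelial, leukocyte and fibroblast lists reached at most 10.1, 4.97 and 8.13 CPM. MYC had 3427, 5614 and 5543 counts in VHL-positive DMSO libraries and 4069, 4513 and 2661 with JQ1. In VHL-negative cells MYC had 11387, 10312 and 7818 counts with DMSO and 5525, 2198 and 4123 with JQ1. These MYC counts are not scaled to library size, and the part of MYC in the results below was not tested.

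Members moved together between libraries of a group as well as between groups. The second VHL-positive DMSO library was the highest of its group for 47 of the 49 members, and the first was the lowest for 44. Under JQ1 the first VHL-positive library was the highest for 42 members and the second the lowest for 45. In VHL-negative JQ1 cells the first was the highest for 43 and the second the lowest for 40. The same counts were not made over all genes, so they do not set the members apart from other genes. The median coefficient of variation over members was 28.3% in VHL-positive DMSO cells, 11.9% in VHL-positive JQ1 cells, 7.70% in VHL-negative DMSO cells and 17.2% in VHL-negative JQ1 cells. MKI67, a marker of cycling cells that is not a member, was 466, 859.5 and 488 CPM in VHL-positive DMSO libraries and 248, 301 and 288 CPM with JQ1. In VHL-negative cells it was 840.3, 549 and 418 CPM with DMSO and 495, 607 and 525 CPM with JQ1. It fell with JQ1 in VHL-positive cells (log2 -1.12, adjusted p = 0.0028). Its part in the results below was not tested. In bulk RNA, fewer cells in S phase and less of these RNAs per cell cannot be told apart.

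**Figure D1:**
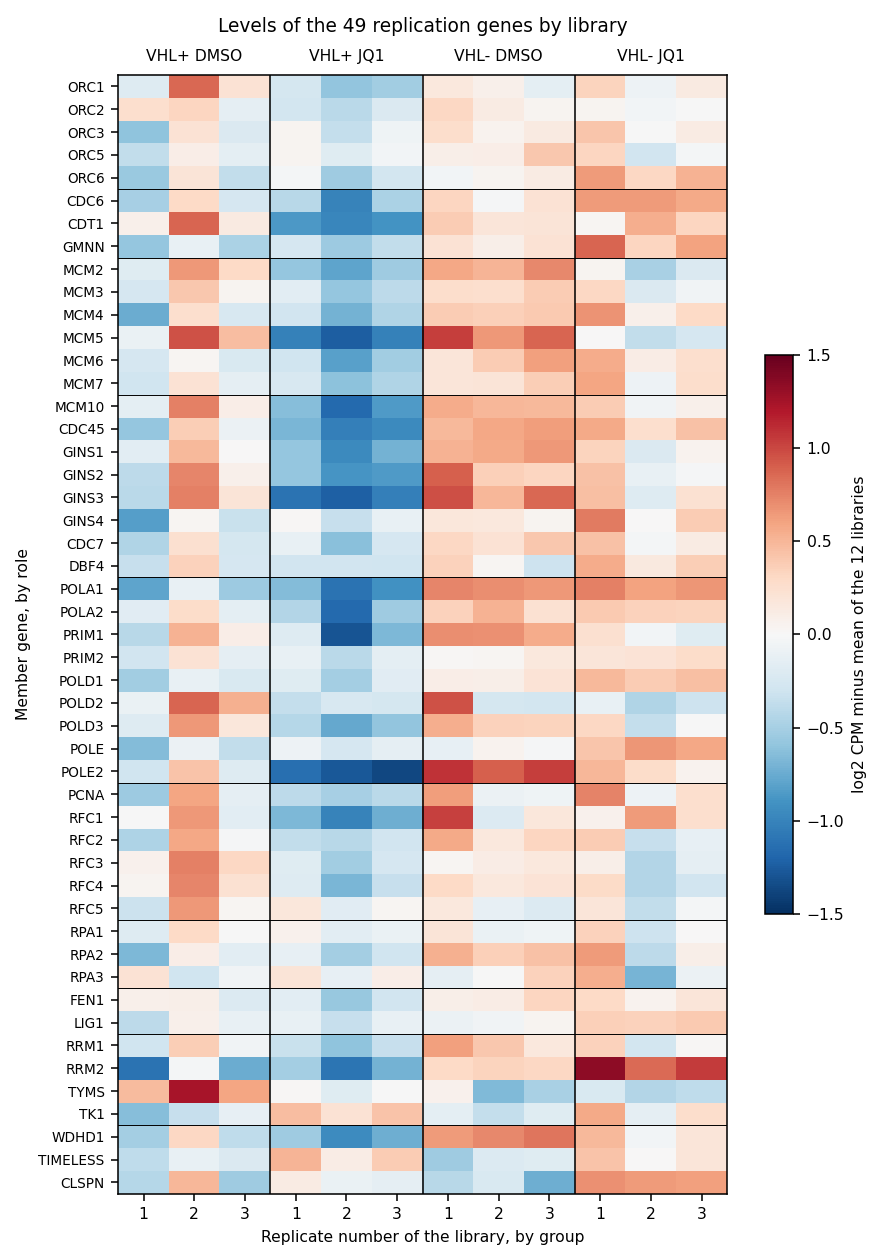
Each row is 1 of the 49 members, grouped by role, and each column 1 of the 12 libraries. Colour gives log2 CPM minus the mean of that gene over all libraries. The second VHL-positive DMSO library stands above the others of its group for 47 of 49 members, a count not made over all genes.

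JQ1 lowered a large part of the replication genes in VHL-positive cells and few of them in VHL-negative cells. In VHL-positive cells 20 of 49 members fell and 2 rose at an adjusted p under 0.05, with 27 not passing, while 16.5% of all tested genes fell and 15.3% rose. The median log2 fold change was -0.45 over members and -0.03 over all genes. In VHL-negative cells 4 members fell and 7 rose, with 38 not passing, while 17.5% of all genes fell and 14.6% rose. The number that rose is near its share, and the member median was -0.02 against 0.03 over all genes. MCM2, MCM5, GINS1 and POLE2 fell in both lines, TK1 and TIMELESS rose in both, 16 members fell in VHL-positive cells with no call in the other line, and 5 rose in VHL-negative cells with no call in the other line. The joint counts of both lines were not made over all genes. Neither they nor the counts by line test a difference between lines, which CDT1 alone passed. The fall in VHL-positive cells leaned on 1 library: without the second DMSO library 12 members fell and the median was -0.22. With the second library of both VHL-positive groups left out, a choice made after seeing the data, 7 fell and the median was -0.11. In VHL-negative cells, 3 rose without the first DMSO library, and 4 rose without the second or the third DMSO or the first or the third JQ1 library. The number that fell there was 2 without the third JQ1 library and 12 without the first, and 7 without the first or the second VHL-positive DMSO library.

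Under JQ1, VHL-negative cells held more of many of these RNAs than VHL-positive cells. With JQ1, 32 of 49 members were higher in VHL-negative cells and 0 were lower, while 19.7% of all genes were higher and 21.2% lower. No member was lower there with DESeq2 or limma-voom either, and none of the 5 members with a negative estimate had an unadjusted p under 0.05. The median log2 difference was 0.66 over members and 0.03 over all genes. With DMSO, 9 were higher and 1 (TYMS) was lower, against 14.8% and 15.9% of all genes, with medians of 0.30 and 0.00. The number higher with DMSO is near its share. The DMSO count moved with single libraries: 26 were higher without the second VHL-positive library, 4 without the first or the third, and 5 without the third VHL-negative library. Members lower there were 2 without the first DMSO library of either line. The DMSO median was 0.14 without the first VHL-positive DMSO library and 0.51 without the second. Scaled by total counts alone, 39 members were higher under JQ1 and 29 fell with JQ1 in VHL-positive cells, but that scaling moved the medians of all genes to 0.19 and -0.14. It also moved the share of higher genes among all called genes from 48.1% to 62.1% under JQ1, from 48.1% to 34.1% for JQ1 in VHL-positive cells, and from 41.2% to 56.3% for the difference between lines. The comparison of lines under JQ1 and that of JQ1 in VHL-positive cells share the 3 VHL-positive JQ1 libraries, so a low value there enters both.

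**Figure D2:**
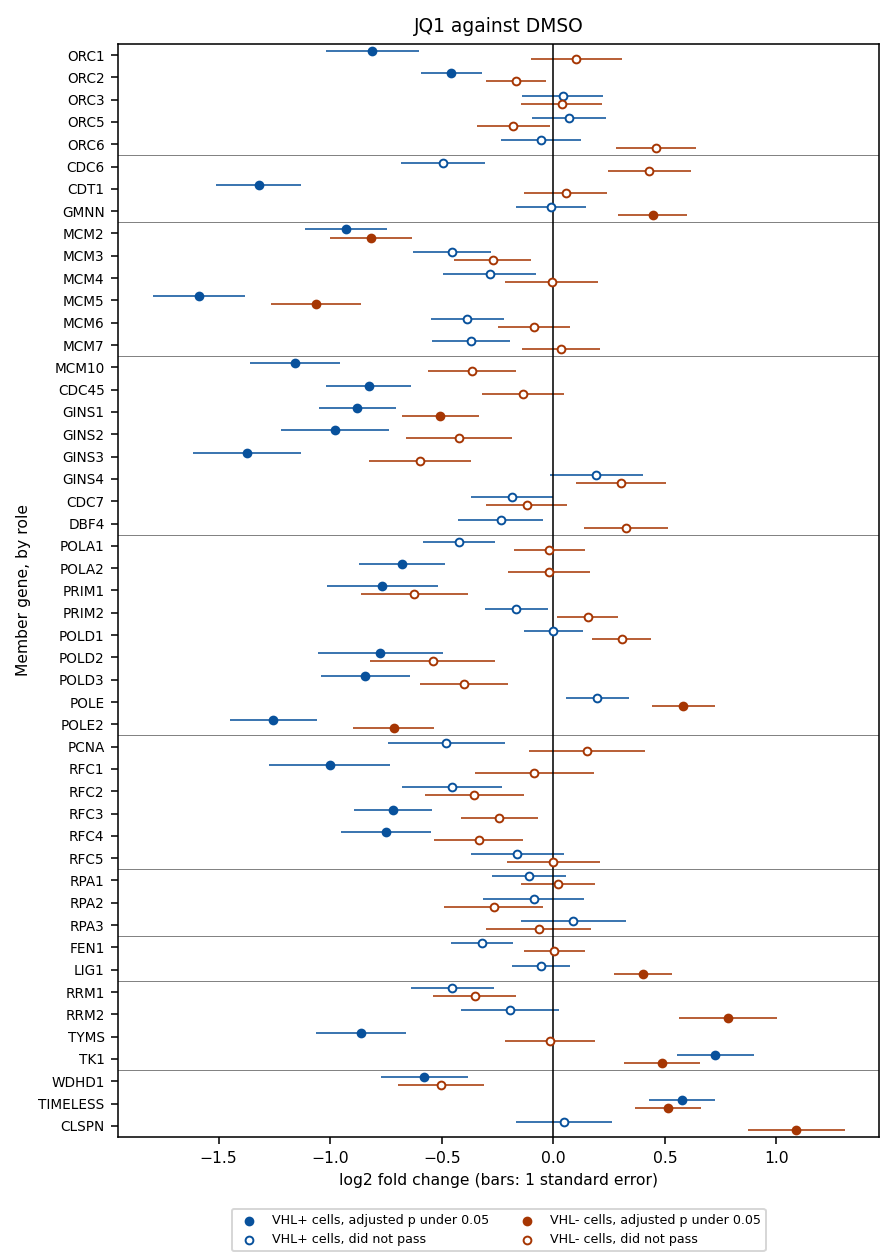
Points give the log2 fold change of JQ1 against DMSO for each member in VHL-positive (blue) and VHL-negative (brown) cells, bars 1 standard error, and filled points an adjusted p under 0.05. Most blue points lie left of zero, with 20 falls and 2 rises, while the brown points lie on both sides.

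Within the licensing machinery, CDT1 was the member with the clearest split between lines. CDT1 (ENSG00000167513, chr16:88803213-88809258 in GRCh38) loads the helicase together with CDC6. Its level was 31.2, 53.9 and 32.5 CPM in VHL-positive DMSO libraries and 16.2, 14.9 and 15.8 CPM with JQ1 (log2 fold change -1.32, SE 0.19, adjusted p = 9.3e-05). All 3 JQ1 libraries lay below all 3 DMSO libraries. VHL-negative cells gave 38.4, 33.5 and 33.8 CPM with DMSO and 30.2, 43 and 36.9 CPM with JQ1, and these groups overlapped (log2 fold change 0.06, SE 0.19, adjusted p = 0.85). Under JQ1 it was higher in VHL-negative cells, with no overlap (log2 fold change 1.22, SE 0.19, adjusted p = 0.00011). CDT1 was the only member that passed the test of the difference between lines (log2 fold change 1.38, SE 0.27, adjusted p = 0.02, as JQ1 effect in VHL-negative minus VHL-positive cells), where 0.497% of all genes passed upward and 0.71% downward. Leaving out any of the 3 VHL-positive JQ1 libraries, or the second or the third VHL-negative library of either treatment, took that call to adjusted p-values of 0.050 to 0.072, with log2 differences of 1.25 to 1.39. It was 1.02 (adjusted p = 0.057) without the second library of both VHL-positive groups.

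CDC6, the ATPase that works beside CDT1, was 28.3, 49.2 and 33.6 CPM in VHL-positive cells with DMSO and 30.0, 20.0 and 28.9 CPM with JQ1, with overlap. It was 50.1, 39.8 and 46.7 CPM (DMSO) and 62.2, 62.4 and 59.5 CPM (JQ1) in VHL-negative cells, where all JQ1 libraries were higher. Neither change passed (log2 -0.49, adjusted p = 0.058, and 0.43, adjusted p = 0.09), and the difference between lines missed the threshold (log2 0.93, adjusted p = 0.084). The VHL-negative level under JQ1 was higher than the VHL-positive one (log2 fold change 1.22, SE 0.19, adjusted p = 0.00011).

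The inhibitor GMNN showed no fall with JQ1. It was 34.4, 47.7 and 37.2 CPM in VHL-positive DMSO libraries and 43.2, 35.3 and 39.9 CPM with JQ1, groups that overlapped fully. VHL-negative cells had 60.2, 54.9 and 60.0 CPM with DMSO and 94.9, 64.8 and 78.5 CPM with JQ1, above both VHL-positive groups without overlap. It was higher in VHL-negative cells with DMSO (log2 fold change 0.55, SE 0.16, adjusted p = 0.012) and with JQ1 (log2 fold change 1.01, SE 0.16, adjusted p = 0.00011). The DMSO call missed the threshold without the first or the third VHL-positive DMSO library (adjusted p = 0.06 and 0.063). Its rise with JQ1 in VHL-negative cells (log2 fold change 0.45, SE 0.15, adjusted p = 0.038) was lost when any of 9 single libraries was left out, at adjusted p-values of 0.052 to 0.15.

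Of the origin recognition complex, which marks origins, ORC1 and ORC2 fell with JQ1 in VHL-positive cells and ORC3, ORC5 and ORC6 did not pass. ORC1, its largest subunit, was 35.3, 73.1 and 47 CPM with DMSO and 33.6, 26.7 and 28.1 CPM with JQ1 (log2 -0.81, adjusted p = 0.0072, and 0.054 without the second DMSO library). All JQ1 libraries were below the DMSO libraries. ORC2 fell by less (log2 -0.46, adjusted p = 0.017) and missed the threshold without the first or second library of either VHL-positive group (0.056 to 0.095). No ORC member passed in VHL-negative cells. ORC6 was higher in VHL-negative cells under JQ1 (log2 fold change 0.77, SE 0.18, adjusted p = 0.0031).

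The MCM2-7 helicase is a ring of 6 different subunits, of which MCM2 and MCM5 fell with JQ1 in both lines and 4 passed in neither. Of all tested genes, 16.5% fell in VHL-positive and 17.5% in VHL-negative cells. MCM5 (ENSG00000100297, chr22:35400063-35425430) fell most of all 49 members in VHL-positive cells. Its level was 87.8, 182 and 130.2 CPM with DMSO and 46.6, 40.1 and 46.5 CPM with JQ1 (log2 fold change -1.59, SE 0.21, adjusted p = 3.7e-05). The VHL-negative levels were 194, 149 and 173 CPM with DMSO and 94.8, 72.9 and 79.1 CPM with JQ1 (log2 fold change -1.06, SE 0.20, adjusted p = 0.0009). No JQ1 library reached a DMSO library of its line. The difference between lines did not pass (log2 0.52, adjusted p = 0.28).

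MCM2 also fell in both lines. It was 73.1, 131 and 102 CPM against 55.5, 48.1 and 57.3 CPM with JQ1 in VHL-positive cells (log2 fold change -0.93, SE 0.18, adjusted p = 0.0012). The VHL-negative values were 125, 118 and 138 CPM (DMSO) and 85.4, 59.2 and 71.2 CPM (JQ1) (log2 fold change -0.82, SE 0.18, adjusted p = 0.003). The groups did not overlap in either line, and both calls for MCM2 and MCM5 held when each library was left out in turn. MCM2 shares 23.6% of its exon bases with 2 other genes, the larger overlap being with one on the other strand, and whether the counting used strand is not stated by the labels or headers.

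The remaining ring subunits did not pass with JQ1 in either line. In VHL-positive cells the log2 fold changes were -0.45 for MCM3 (adjusted p = 0.058), -0.38 for MCM6 (0.083), -0.37 for MCM7 (0.12) and -0.29 for MCM4 (0.32). The estimate for MCM4 turned to 0.02 without the second VHL-positive DMSO library. MCM6 was 86.5, 104 and 87.6 CPM (DMSO) and 83.6, 58.4 and 71.2 CPM (JQ1) in VHL-positive cells and 116, 134 and 157 CPM (DMSO) and 151, 110.5 and 122 CPM (JQ1) in VHL-negative cells. Every VHL-negative library was above every VHL-positive one, with DMSO (log2 fold change 0.55, SE 0.16, adjusted p = 0.017) and with JQ1 (log2 fold change 0.85, SE 0.16, adjusted p = 0.0007). The DMSO call missed the threshold without the first or the third VHL-positive or the third VHL-negative DMSO library (0.060 to 0.074). MCM4, MCM5 and MCM7 were also higher in VHL-negative cells under JQ1, by log2 0.84, 0.89 and 0.71 (adjusted p = 0.0046, 0.0027 and 0.0043).

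A ratio of 2 genes within a library does not depend on how libraries are scaled. The ratios here were chosen after the values were seen, use CPM per kilobase of exon, and can reach no p below 0.1 in an exact permutation test of 3 against 3. MCM5 over the mean of MCM3, MCM4, MCM6 and MCM7 was 0.331, 0.450 and 0.416 in VHL-positive DMSO libraries and 0.162, 0.186 and 0.187 with JQ1. The VHL-negative ratios were 0.483, 0.364 and 0.385 (DMSO) and 0.196, 0.225 and 0.208 (JQ1). In both lines the JQ1 libraries lay below all DMSO libraries. The same held for MCM2 over those subunits, at 0.413 to 0.487 against 0.288 to 0.345 in VHL-positive cells and 0.435 to 0.464 against 0.264 to 0.281 in VHL-negative cells. CDT1 over GMNN was 0.673, 0.839 and 0.648 in VHL-positive cells with DMSO and 0.279, 0.314 and 0.294 with JQ1. In VHL-negative cells it was 0.474, 0.452 and 0.418 (DMSO) and 0.236, 0.493 and 0.348 (JQ1), and there the groups overlapped. Each of the comparisons without overlap had a two-sided exact p of 0.1, and 28 ratio comparisons were made in all.

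**Figure D3:**
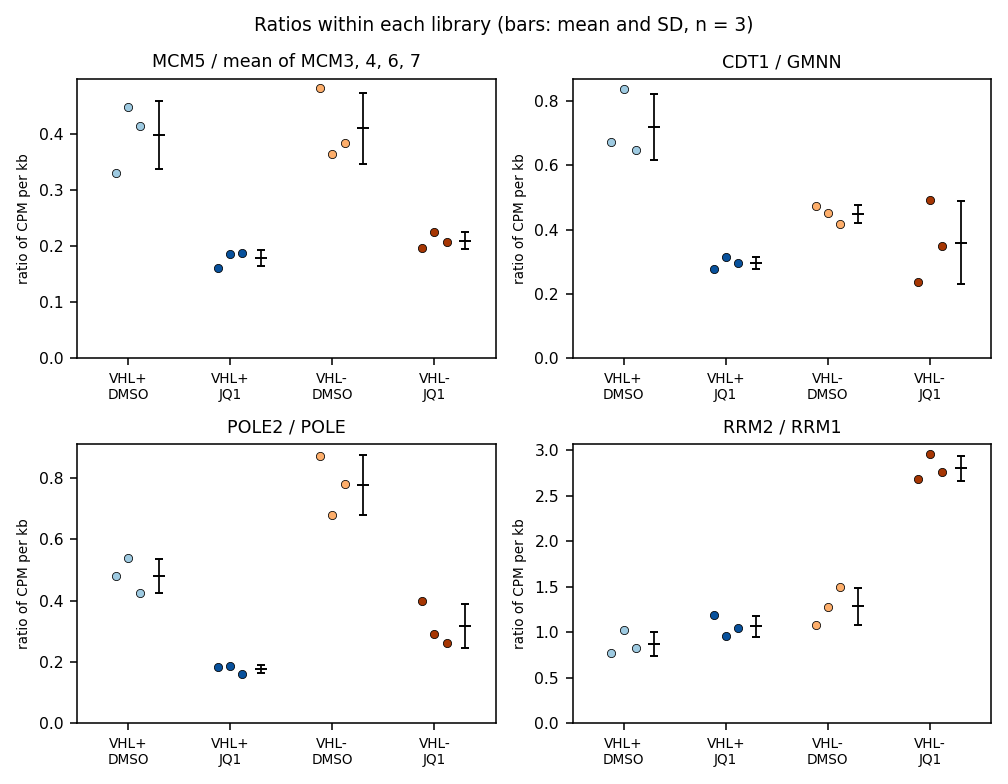
Points are the 3 libraries of each group, and bars the mean and SD (n = 3) of the ratio of CPM per kilobase of exon between the genes named above each panel. MCM5 relative to 4 other ring subunits and POLE2 relative to POLE were lower with JQ1 in both lines, CDT1 relative to GMNN was lower without overlap in VHL-positive cells, and RRM2 relative to RRM1 was 2.68 to 2.96 in VHL-negative JQ1 libraries.

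Genes that activate the helicase fell with JQ1 in VHL-positive cells in 5 of 8 cases, where 16.5% of all tested genes fell. MCM10, a scaffold for origin firing, was 31.9, 59.6 and 37.7 CPM with DMSO and 22.6, 15.7 and 19.6 CPM with JQ1 (log2 fold change -1.16, SE 0.20, adjusted p = 0.00045). CDC45, the helicase co-factor, was 14, 26.8 and 19.7 CPM (DMSO) and 13, 10.2 and 10.8 CPM (JQ1) (log2 fold change -0.83, SE 0.19, adjusted p = 0.0036). JQ1 libraries lay below DMSO libraries for both genes. In VHL-negative cells MCM10 was 51.9, 49.9 and 49.3 CPM (DMSO) and 45.9, 34.1 and 37 CPM (JQ1), with no overlap but no call (log2 -0.37, adjusted p = 0.17). CDC45 was 29.1, 31.2 and 32.2 CPM in VHL-negative cells with DMSO and 30.8, 24.9 and 28.3 CPM with JQ1. Of all VHL-positive libraries, the second DMSO library alone reached into this range. CDC45 was higher in VHL-negative cells under DMSO (log2 0.61, adjusted p = 0.018) and JQ1 (log2 1.31, adjusted p = 6.1e-05). Leaving out the first or the third VHL-positive, or the second or the third VHL-negative, DMSO library took the first of these to 0.051 to 0.082.

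In the GINS complex, a ring-shaped partner of CDC45, GINS1, GINS2 and GINS3 fell with JQ1 in VHL-positive cells. GINS3 was 11.9, 26.4 and 17.9 CPM in VHL-positive DMSO libraries and 7.28, 6.72 and 7.69 CPM with JQ1 (log2 fold change -1.37, SE 0.24, adjusted p = 0.00047). For GINS3 the VHL-negative libraries gave 30.6, 22.2 and 28.4 CPM (DMSO) and 21.4, 13.7 and 18.3 CPM (JQ1) (log2 -0.60, adjusted p = 0.057). The JQ1 libraries were below the DMSO libraries in both lines. GINS1 was 52.2, 81.2 and 58.6 CPM (DMSO) and 38.8, 30.0 and 35.6 CPM (JQ1) in VHL-positive cells (log2 fold change -0.88, SE 0.17, adjusted p = 0.0012), and 83.7, 86.3 and 91 CPM (DMSO) and 73.4, 49.9 and 60.3 CPM (JQ1) in VHL-negative cells (log2 fold change -0.51, SE 0.17, adjusted p = 0.033). Its groups did not overlap in either line. The VHL-negative call for GINS1 was lost without the first or the third DMSO library, the second or the third JQ1 library, or the third VHL-positive JQ1 library (0.053 to 0.15). GINS2 fell in VHL-positive cells (log2 -0.98, adjusted p = 0.0057), and GINS4 did not pass in either line. GINS3 and GINS4 share 10.9% and 23.6% of their exon bases with 1 and 2 other genes, the largest overlap of each being on the other strand.

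GINS3 over GINS4 within a library, per kilobase, was 1.16 to 1.43 in VHL-positive cells with DMSO and 0.397 to 0.475 with JQ1, and 1.10 to 1.53 and then 0.687 to 0.779 in VHL-negative cells. The kinase genes CDC7 and DBF4 did not pass with JQ1 in either line. Under JQ1 all 8 genes of the group were higher in VHL-negative cells, against 19.7% of all tested genes. They were led by CDC45, GINS3 (log2 1.31, adjusted p = 0.0005) and MCM10 (log2 1.02, adjusted p = 0.0009). The smallest of them, CDC7 (log2 0.51) and GINS4 (log2 0.57), were lost when either the second or the third VHL-positive or the first or the third VHL-negative JQ1 library was left out, or the third VHL-positive DMSO library, and GINS4 also without the first VHL-positive JQ1 library (adjusted p up to 0.18 and 0.20).

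Among the polymerases, POLA1 and POLE2 carried the largest differences between lines. POLA1 (ENSG00000101868, chrX:24693919-24996986), the catalytic subunit of the primer-making polymerase alpha, was 41.2, 66.2 and 48.9 CPM in VHL-positive DMSO libraries. It was 119, 116 and 112 CPM in VHL-negative DMSO libraries, all above every VHL-positive library (log2 fold change 1.15, SE 0.16, adjusted p = 4.2e-05). With JQ1 the values were 45.4, 33 and 38 CPM in VHL-positive and 121, 108 and 113 CPM in VHL-negative cells (log2 fold change 1.56, SE 0.16, adjusted p = 2e-06). The fall with JQ1 in VHL-positive cells missed the threshold (log2 -0.42, adjusted p = 0.056), and the VHL-negative groups overlapped.

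POLE2, the accessory subunit of the leading-strand polymerase epsilon, changed in all 4 simple comparisons. It was 7.93, 13.1 and 8.52 CPM in VHL-positive DMSO libraries and 4.48, 4.05 and 3.79 CPM with JQ1 (log2 fold change -1.26, SE 0.19, adjusted p = 0.00017). Values in VHL-negative cells were 20.7, 18.2 and 20.0 CPM (DMSO) and 13.8, 11.9 and 10.1 CPM (JQ1) (log2 fold change -0.71, SE 0.18, adjusted p = 0.0066, and 0.051 without the third JQ1 library). It was higher in VHL-negative cells under DMSO (log2 0.99, adjusted p = 0.00052) and under JQ1 (log2 1.53, adjusted p = 1.5e-05). None of these pairs of groups overlapped.

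The catalytic subunit POLE rose with JQ1 in VHL-negative cells and did not pass in VHL-positive cells. It was 92.9, 137 and 112 CPM (DMSO) and 138, 122 and 132 CPM (JQ1) in VHL-positive cells (log2 0.20, adjusted p = 0.31), and 133, 151 and 144 CPM (DMSO) and 194, 229 and 217 CPM (JQ1) in VHL-negative cells (log2 fold change 0.58, SE 0.14, adjusted p = 0.0049). The VHL-negative JQ1 libraries were above all others. POLE2 over POLE per kilobase was 0.480, 0.538 and 0.426 against 0.182, 0.186 and 0.161 in VHL-positive cells and 0.872, 0.679 and 0.782 against 0.400, 0.290 and 0.263 in VHL-negative cells, lower with JQ1 in every library of either line.

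Other polymerase and primase genes also fell. POLD3 (log2 -0.84, adjusted p = 0.0044), a small subunit of polymerase delta, fell with JQ1 in VHL-positive cells. POLD2 (log2 -0.78, 0.045), PRIM1 (log2 -0.77, 0.027) and POLA2 (log2 -0.68, 0.014) fell there too, but each lost its call without the second library of VHL-positive DMSO or of VHL-positive JQ1. Without them the adjusted p was 0.21 and 0.097 for POLD2, 0.15 and 0.15 for PRIM1, and 0.07 and 0.092 for POLA2. POLD2 also missed it without the third library of VHL-positive DMSO, the first or the third of VHL-positive JQ1, or the third of VHL-negative JQ1 (0.063 to 0.13), and PRIM1 without the third of either VHL-positive group (0.06 and 0.082). POLD2 further had 1 VHL-negative DMSO library far above the others, at 146, 62.7 and 61.9 CPM. None of POLD2, PRIM1, POLA2 and POLD3 passed with JQ1 in VHL-negative cells. In the authors' DESeq2 comparison their log2 fold changes there were -0.58, -0.65, -0.05 and -0.43 (adjusted p = 0.14, 0.055, 0.89 and 0.14). POLA2 shares 35.1% of its exon bases, and PRIM1 21.6%, with 1 and 3 other genes, the largest overlap of each being on the same strand. POLD1, the delta catalytic subunit, did not move with JQ1 in VHL-positive cells beyond its spread, at 54.4, 72.1 and 66.3 CPM (DMSO) and 68.7, 54.8 and 69.3 CPM (JQ1). It was higher in VHL-negative cells, at 83.4, 83 and 90.0 CPM with DMSO and 109, 102 and 106 CPM with JQ1 (log2 fold change 0.72, SE 0.13, adjusted p = 0.00049 with JQ1). With DMSO the call (log2 0.41, adjusted p = 0.026) was lost without the first or the third VHL-positive, or the second or the third VHL-negative, DMSO library (0.054 to 0.12). Under JQ1, 8 of the 9 polymerase and primase genes were higher in VHL-negative cells, all except POLD2, against 19.7% of all tested genes. PRIM1, PRIM2 and POLD3 each missed the threshold in fits without a single library, with adjusted p-values of 0.20, 0.12 and 0.11 without the second VHL-positive JQ1 library.

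**Figure D4:**
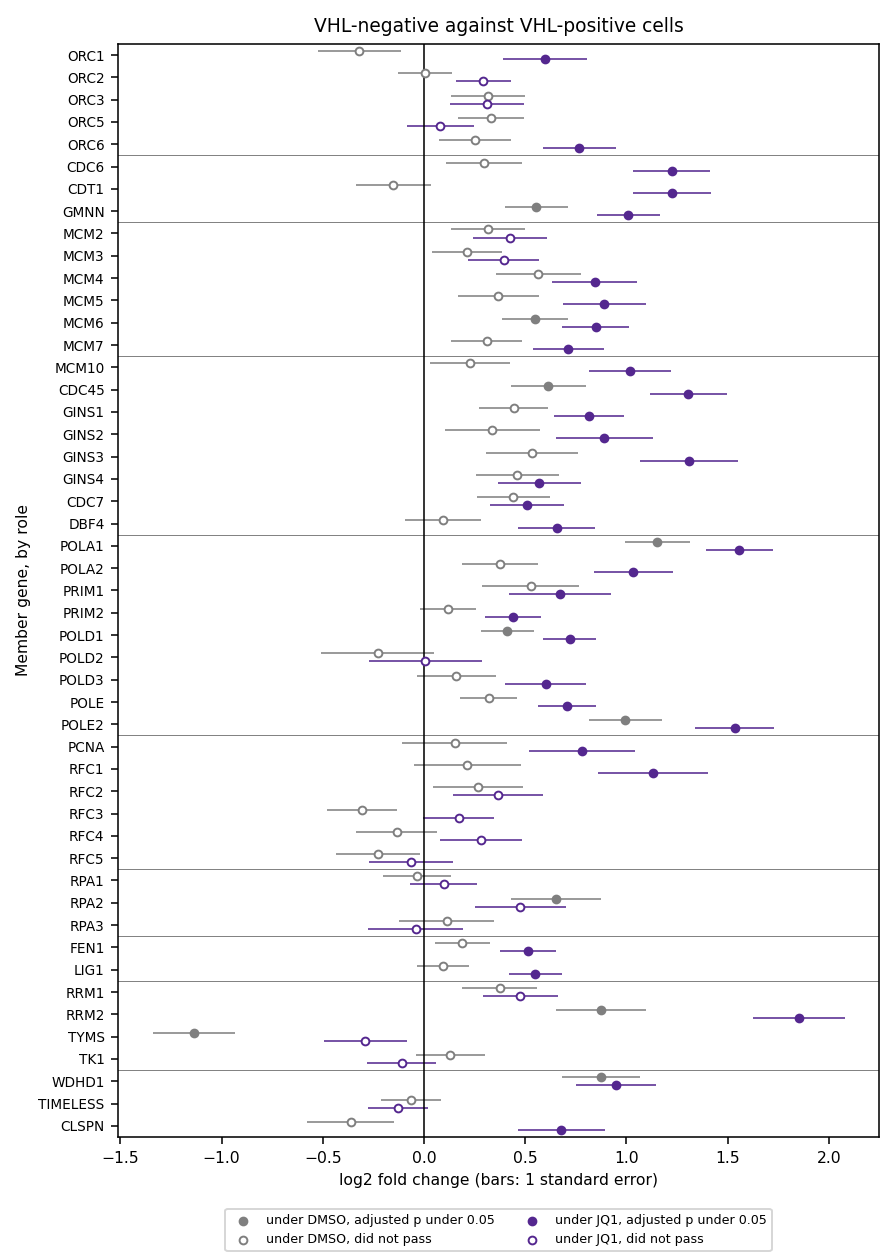
Points give the log2 difference between VHL-negative and VHL-positive cells for each member under DMSO (grey) and JQ1 (purple), bars 1 standard error, and filled points an adjusted p under 0.05. With JQ1 32 members are filled on the right and 0 on the left, and TYMS is the only filled grey point on the left.

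Of the 6 clamp and loader genes, 3 fell with JQ1 in VHL-positive cells, against 16.5% of all tested genes. RFC1, RFC3 and RFC4, subunits of the complex that opens the PCNA ring, fell with JQ1 in VHL-positive cells (log2 -1.002, -0.72 and -0.75, adjusted p = 0.01, 0.0051 and 0.0096). RFC1 missed the threshold without the second VHL-positive DMSO library (0.065), as did RFC4 without that library (0.069) or the second VHL-positive JQ1 library (0.064). RFC1 was 51.7, 81.7 and 46.4 CPM (DMSO) and 32.6, 25.9 and 31.2 CPM (JQ1) in VHL-positive cells. Its VHL-negative levels were 105, 44.9 and 58.4 CPM (DMSO) and 54.1, 80.8 and 61.9 CPM (JQ1), where the first DMSO library stood apart from the other two. PCNA itself varied within groups, at 89.2, 197 and 118 CPM in VHL-positive DMSO libraries and 99.2, 92.1 and 98.8 CPM with JQ1, and did not pass (log2 -0.48, adjusted p = 0.18). None of the 6 passed in VHL-negative cells with JQ1.

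The single-strand binding subunits RPA1, RPA2 and RPA3 did not pass with JQ1 in either line. RPA2 was higher in VHL-negative cells with DMSO (log2 fold change 0.65, SE 0.22, adjusted p = 0.035), a call that was lost when any of 6 single libraries was left out (adjusted p 0.050 to 0.15). FEN1, the flap nuclease, and LIG1, the ligase that joins Okazaki fragments, did not fall with JQ1 in either line beyond the test. LIG1 was 80.4, 82.3 and 88 CPM in VHL-negative DMSO libraries and 110.2, 109 and 112 CPM with JQ1, all higher (log2 fold change 0.40, SE 0.13, adjusted p = 0.027). That call missed the threshold without any 1 of the 3 VHL-negative DMSO libraries or the third JQ1 library (0.057 to 0.088). In VHL-positive cells LIG1 was 65.1, 90.6 and 79.2 CPM (DMSO) and 79.4, 67.4 and 79.6 CPM (JQ1), which overlapped.

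Nucleotide supply showed opposite directions among 4 genes. RRM2 (ENSG00000171848, chr2:10120698-10131419), the small subunit of ribonucleotide reductase whose level follows S phase, was 204, 209 and 205 CPM in VHL-negative DMSO libraries and 420.1, 299 and 344 CPM with JQ1 (log2 fold change 0.78, SE 0.22, adjusted p = 0.013). VHL-positive cells had 77, 162 and 98.7 CPM (DMSO) and 116, 77.7 and 101 CPM (JQ1), which overlapped (log2 -0.19, adjusted p = 0.55, and 0.18 as a log2 value without the second DMSO library). Under JQ1 it had the largest difference between lines of all members (log2 fold change 1.85, SE 0.23, adjusted p = 1e-05), and it was also higher under DMSO (log2 fold change 0.87, SE 0.22, adjusted p = 0.0066). The difference of the JQ1 effects did not pass (log2 0.98, adjusted p = 0.11). RRM2 over RRM1, its large subunit, was 0.769, 1.02 and 0.833 (DMSO) and 1.19, 0.962 and 1.04 (JQ1) in VHL-positive cells, and 1.09, 1.28 and 1.49 (DMSO) and 2.68, 2.96 and 2.77 (JQ1) in VHL-negative cells. The VHL-negative JQ1 libraries lay at 2.68 to 2.96, and the highest of all other libraries at 1.49. RRM2 shares 20.2% of its exon bases with a gene on the same strand.

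TYMS, thymidylate synthase, fell with JQ1 in VHL-positive cells and was lower in VHL-negative cells with DMSO. It was 29.8, 50.7 and 32.5 CPM in VHL-positive DMSO libraries, 21.8, 19 and 21.4 CPM with JQ1 (log2 fold change -0.86, SE 0.20, adjusted p = 0.0039), and 22.4, 13.6 and 15.4 CPM (DMSO) and 18.4, 15.9 and 16.5 CPM (JQ1) in VHL-negative cells. All VHL-negative DMSO libraries lay below the VHL-positive ones, and TYMS was the only member lower in VHL-negative cells with DMSO (log2 fold change -1.14, SE 0.20, adjusted p = 0.00042). Its exons share 46.6% of their bases with 2 other genes, the larger overlap being with ENOSF1 on the other strand, so its counts are uncertain. TK1, thymidine kinase, rose with JQ1 in VHL-positive cells, from 127, 154 and 180.2 to 271, 229 and 264 CPM (log2 fold change 0.73, SE 0.17, adjusted p = 0.0042). TK1 in VHL-negative cells was 178, 154 and 173 CPM (DMSO) and 291, 179 and 237 CPM (JQ1) (log2 0.49, adjusted p = 0.039), and that call was lost when any of 8 single libraries was left out (0.052 to 0.16).

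At the fork, CLSPN and TIMELESS, which carry the checkpoint signal from stalled forks, did not fall. CLSPN (ENSG00000092853, chr1:35720218-35769967) was 78.3, 89.1 and 62.9 CPM in VHL-negative DMSO libraries and 168, 162 and 159.6 CPM with JQ1 (log2 fold change 1.09, SE 0.22, adjusted p = 0.0012). The values in VHL-positive cells were 77.2, 147 and 72 CPM (DMSO) and 114, 97.4 and 94.8 CPM (JQ1), with the second DMSO library above all JQ1 libraries and the other two below them. The difference between lines missed the threshold (log2 1.04, adjusted p = 0.086). TIMELESS rose in VHL-positive cells from 77.2, 92.5 and 86.3 to 143, 108 and 131 CPM (log2 fold change 0.58, SE 0.15, adjusted p = 0.0074). TIMELESS in VHL-negative cells was 69.5, 87.2 and 88.4 CPM (DMSO) and 135, 101 and 114 CPM (JQ1) (log2 fold change 0.51, SE 0.15, adjusted p = 0.015), a call that missed the threshold without the first VHL-negative library of DMSO (0.08) or of JQ1 (0.055). No TIMELESS group pair overlapped between treatments.

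WDHD1, which ties polymerase alpha to the helicase, was 30.0, 53 and 32.9 CPM (DMSO) and 29.5, 22.2 and 25.8 CPM (JQ1) in VHL-positive cells and 66.8, 70.7 and 74.7 CPM (DMSO) and 59.7, 41.5 and 48.4 CPM (JQ1) in VHL-negative cells. It was higher in VHL-negative cells with DMSO (log2 fold change 0.87, SE 0.19, adjusted p = 0.0025) and with JQ1 (log2 fold change 0.95, SE 0.20, adjusted p = 0.0012), with no overlap. Its fall with JQ1 in VHL-positive cells (log2 -0.58, adjusted p = 0.033) missed the threshold without the second VHL-positive DMSO library (0.27), the second or the third VHL-positive JQ1 library (0.15 and 0.10) or the third VHL-negative JQ1 library (0.053). In VHL-negative cells all JQ1 libraries of WDHD1 also lay below the DMSO libraries, with no call here (log2 -0.50). The authors' DESeq2 comparison calls WDHD1 lower with JQ1 in VHL-negative cells (log2 -0.53, adjusted p = 0.0495).

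**Figure D5:**
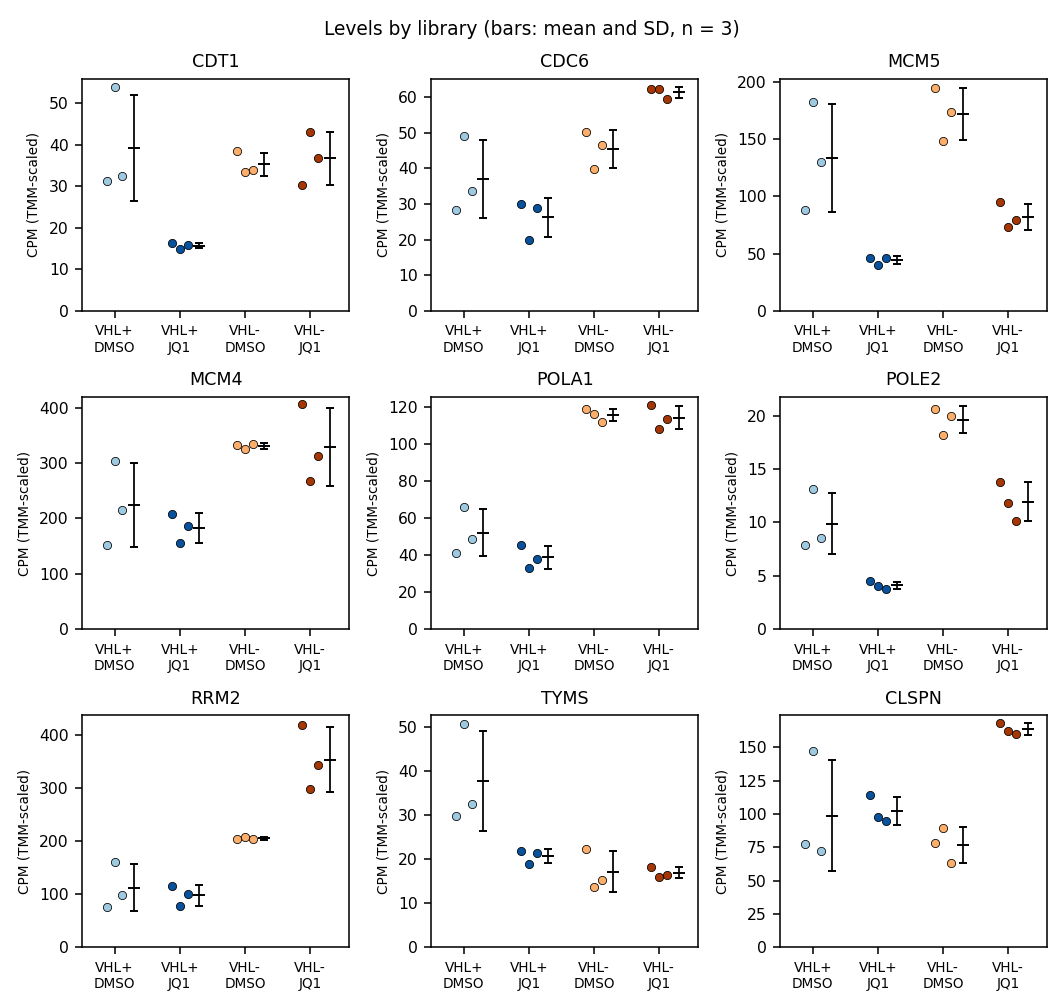
Points are the 3 libraries of each group for 9 members, in CPM after TMM scaling, and bars the mean and SD (n = 3). CDT1 was 14.9 to 16.2 CPM in VHL-positive JQ1 libraries and at least 30.2 CPM in all others, MCM5 was lower with JQ1 in both lines, and RRM2 and CLSPN were highest in VHL-negative JQ1 libraries.

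For the difference of the JQ1 effects between lines, 48 of 49 members did not pass. The estimate was positive, that is higher in VHL-negative cells, for 43 members, with a median log2 difference of 0.39 against 0.01 over all genes, and CDT1 alone passed. The next by size were CLSPN, RRM2 (log2 0.98), CDC6, RFC1 (log2 0.92, adjusted p = 0.18) and ORC1 (log2 0.91, adjusted p = 0.11). Without the second library of both VHL-positive groups the median was 0.09, and without the second VHL-positive DMSO library alone 0.18.

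Across members, levels per kilobase of exon ranged widely. TK1 was highest, with a mean over groups of 109 CPM per kilobase (68.1 to 156 over libraries), and PCNA followed with 93.0 (60.7 to 149), so these ranges overlap. MCM7 (63.6) and MCM3 (62.2) came next and did not differ beyond their spread over libraries. POLA2 was lowest, at 1.42 (0.601 to 1.94). With the length of the longest transcript in place of all exon bases, TK1, PCNA and MCM7 stayed the top of the order, and POLA2 the lowest.

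A second list of 47 other replication genes, covering chromatin assembly, alternative loaders and related factors, was also counted. In VHL-positive cells 16 fell with JQ1 and 6 rose, and in VHL-negative cells 9 fell and 8 rose, against 16.5%, 15.3%, 17.5% and 14.6% of all genes in that order. Between lines 8 were higher and 2 lower in VHL-negative cells with DMSO, and 26 higher and 2 lower with JQ1, against 14.8%, 15.9%, 19.7% and 21.2% of all genes. For JQ1 against DMSO, the 9 falls and 8 rises in VHL-negative cells and the 6 rises in VHL-positive cells are near their shares. So are the 8 genes higher in VHL-negative cells with DMSO. UHRF1, which couples replication to DNA methylation, was 54.6, 92.2 and 59.6 CPM in VHL-positive DMSO libraries and 30.9, 31.3 and 34.6 CPM with JQ1 (log2 -1.09, adjusted p = 0.00025). In VHL-negative cells it was 74.1, 71.7 and 62.6 CPM (DMSO) and 72.6, 96.5 and 89 CPM (JQ1). Its JQ1 effect differed between lines (log2 fold change 1.40, SE 0.25, adjusted p = 0.014), and missed the threshold without the first or second VHL-positive or the third VHL-negative JQ1 library (0.053 to 0.060). CHAF1A, a chromatin assembly factor, was higher in VHL-negative cells under JQ1 (log2 1.26, adjusted p = 1.3e-05).

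The authors' deposited table for JQ1 in VHL-positive cells calls 20 members lower and 2 higher at an adjusted p under 0.05, the same 22 members as here. The authors' deposited table for VHL-negative cells calls 5 lower and 5 higher, of which 4 and 5 were also called here.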

How the data were processed

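RNA-seq gene counts of 12 libraries were analysed. The deposited table holds whole read counts per gene; the reads were aligned with STAR 2.7.8 and counted with featureCounts of Subread 2.0.3 on GRCh38, per the submitters' processing notes. The authors' deposited comparison tables give log2 fold changes and adjusted p-values, made with DESeq2 1.30.1 per the same notes. Read strand and trimming are not given in the sources used here.

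Counts were filtered with filterByExpr (20714 genes kept, 99.9% of counts), scaled with TMM, and fitted with edgeR 4.0.16 (R 4.3.3) with 1 mean per group over all 12 libraries. Quasi-likelihood tests were adjusted with Benjamini-Hochberg over all genes tested, and calls use an adjusted p under 0.05. The code was tested on simulated counts. Gene positions and exon lengths come from GENCODE 29. Members and lists were chosen with earlier results of these data known. Library values are given for members passing the difference between lines and for up to 8 members with the smallest p in each other comparison, and for further members by role. Alternatives were other scalings and filters, DESeq2 1.42.0, limma-voom (limma 3.58.1), a replicate block, protein-coding genes, the compared groups alone, stricter thresholds and libraries left out. Exact permutation tests of ratios are two-sided.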

Additional observations from a re-analysis of the deposited data

Results flagged for a closer look

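The JQ1 effect differed between the lines for CDT1, by 1.38 on the log2 scale (JQ1 effect in VHL-negative minus VHL-positive cells, edgeR adjusted p = 0.02). The difference was also found for UHRF1, by 1.40 (adjusted p = 0.014). For both genes all 3 VHL-positive JQ1 libraries were below all 9 other libraries. MKI67 fell in the same libraries (log2 -1.12 in VHL-positive cells), and its part in these differences was not tested.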

How the results depend on the processing

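Counts of called members were recomputed under other scalings, filters, tools, thresholds and sample sets. Falls or rises held at an adjusted p under 0.05 in all fits with other scalings, filters, tools and sample sets for MCM2, MCM5, MCM10, CDT1, GINS1, GINS3, POLE2, TK1 and TIMELESS with JQ1 in VHL-positive cells, for MCM2, MCM5, POLE and CLSPN in VHL-negative cells, and for POLA1, POLE2, RRM2, WDHD1 and TYMS between lines with DMSO. Whether the replicate numbers pair the libraries is not settled. Same-numbered libraries correlated at -0.26 to 0.33 and differently numbered ones at -0.38 to 0.20. Between treatments in VHL-negative cells the same-numbered values were 0.27, 0.33 and 0.0089, against -0.38 to 0.11. Between lines with JQ1 they were 0.24, 0.17 and 0.012, against -0.23 to 0.063. In the other group pairs same-numbered libraries did not stand higher. With a replicate block, members called went from 22 to 20 and from 11 to 10 with JQ1 in VHL-positive and VHL-negative cells, from 10 to 9 and 32 to 29 between lines with DMSO and JQ1, and stayed at 1 for the difference of the JQ1 effects. The block took the call from 2 members with JQ1 in VHL-positive cells and from 1 in VHL-negative cells. Between lines it took the call from 1 member with DMSO and 3 with JQ1. Which members other settings added was not compared in full.

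Leaving out each library in turn gave 15 to 27 members called with JQ1 in VHL-positive cells (median log2 fold change -0.57 to -0.22), 6 to 16 in VHL-negative cells, 5 to 27 between lines with DMSO (median 0.14 to 0.51), 23 to 35 with JQ1, and 0 to 3 for the difference (median 0.18 to 0.50). Other replication genes called were 17 to 26, 12 to 19, 5 to 21, 19 to 31 and 0 to 7 in the same order. Without the second library of both VHL-positive groups, added after seeing the data, 9 members were called with JQ1 in VHL-positive cells (median -0.11), 26 between lines with DMSO and 0 for the difference (median 0.093). Other genes called were then 14 with JQ1 in VHL-positive cells and 18 between lines with DMSO. With the third JQ1 library of each line left out, members called were 4 in VHL-negative cells, 20 between lines under JQ1 and 0 for the difference. The other genes called were then 14, 7, 6, 16 and 0 in the order above. With each line's first DMSO library left out, 5 members passed the difference, and 5 other genes passed between lines with DMSO and 3 the difference. With total counts alone 16 members were called between lines with DMSO, and 2 other genes passed the difference. At an adjusted p under 0.01, members called were 5 with JQ1 in VHL-negative cells, 5 between lines with DMSO and 0 for the difference, and other genes 10, 5 and 0, with 18 between lines under JQ1. With a 1.5-fold minimum, 5 members and 8 other genes were called with JQ1 in VHL-negative cells and 6 other genes between lines with DMSO. For the difference, members and other genes called were 7 and 3 with no filter on low counts, 4 and 5 with DESeq2 and 2 and 3 with protein-coding genes only, and 2 other genes passed with a filter of 1 CPM in 3 libraries. The cause of these changes was not tested, beyond the smaller number of libraries where some were left out.

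Estimates that changed sign belonged to members that did not pass. MCM4 with JQ1 in VHL-positive cells was 0.12 on the log2 scale without both second libraries and -0.50 to 0.017 over fits without 1 library, highest without the second DMSO library. RRM2 was 0.32 and -0.41 to 0.18, highest without the same library. CDT1 with JQ1 in VHL-negative cells was -0.0095 with no filter and -0.060 to 0.17 over fits without 1 library, lowest without the second JQ1 library. Groups of 3 limit all tests here, and reads shared between overlapping genes cannot be separated.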
